A study of Mus musculus with 8 samples.

Results

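RNA from whole testes labelled as homozygous mutant for Dnmt3a was compared with RNA from wildtype testes at 25 days post partum (dpp). All animals were C57BL/6 males, and the groups were homozygous wildtype (Dnmt3A WT/WT, here WT) or homozygous mutant (Dnmt3A KO/KO, here KO). The labels do not say which stretch of the gene was deleted, whether the deletion was in the whole body or in germ cells only, or whether the replicates were separate animals. The 4 libraries at 25 dpp, 2 per genotype, were chosen by their labels from the 8 libraries of the series, and the other 4 were WT and KO testes at 19 dpp. Only gene entries were used, 54087 of the 55292 entries in each table.

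DNMT3A is an enzyme that sets new methyl marks on cytosines, mostly where C is followed by G, and in male germ cells it acts before birth, in cells that later become spermatogonia. In the mouse testis the germ cells of the earliest wave advance together after birth, from spermatogonia through the long prophase of meiosis to haploid spermatids, so that the age of a young testis sets the most advanced germ cells it holds. Spermatids then build the acrosome, a vesicle that opens at fertilisation, the tail, and a compact chromatin in which histones give way to transition proteins and protamines.

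Levels are given in CPM, counts per fixed total of reads after scaling the library sizes by the trimmed mean of M-values (TMM). A fold change is the log2 of the KO level divided by the WT level, with the standard error (SE) of edgeR's quasi-likelihood fit, and a gene is said to rise or fall where its p-value, adjusted by the Benjamini-Hochberg method over 23353 genes, was under 0.05. As the labels do not say that replicates were separate animals, these p-values measure the spread between the libraries, which may be technical. In bulk tissue, fewer cells of a type and less RNA per cell cannot be told apart.

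Gene totals per library ran from 26405372 to 50445334 counts. WT replicate 1 was over 2-fold above WT replicate 2 for 1416 of the 18268 genes at or above a mean of 1 CPM, and the reverse held for 30. Of those 1416 genes 92.1% fell in KO, against 37.4% of all genes tested. They were chosen by their WT replicate 1 values, which also enter the test, so the choice itself can raise this share. KO replicate 2 was over 2-fold above KO replicate 1 for 409 genes, of which 74.3% fell in KO, and the reverse held for 120. KO replicate 1 held 11.3 CPM of Crisp1, a gene of the epididymis, the duct beside the testis, where the other libraries held 0.0355 to 0.136 CPM. Of the 8 genes listed for the epididymis, Defb1 and Adam7 were also above 0.5 CPM in KO replicate 1 alone. Lcn5, Lcn8 and Gpx5 had at most 3 counts in any library. Rnase10 and Spink2 had a geometric mean of 59.5 and 42.9 CPM in the WT libraries, which held little Crisp1, so they do not mark epididymal tissue here. Both fell in KO, Spink2 by 5.22 on the log2 scale and Rnase10 to 3 counts. For Rnase10 the WT to KO ratio was 169 (exact 95% interval of the counts 57.4 to 820.0). Here and below such an interval covers counting error only, as reads are not independent molecules. Whether epididymal tissue in KO replicate 1 plays a part in any result was not tested. For genes described as rising or falling the adjusted p without that library is given where the call was lost.

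At 25 dpp 14840 of 23353 genes changed (63.5%), of which 6096 rose (26.1% of those tested) and 8744 fell (37.4%). The falls were the deeper changes. Over 4-fold, 5586 genes fell (23.9%) and 685 rose (2.93%), and over 32-fold 2739 fell and 16 rose. Genes that fell over 4-fold held 35.0% and 26.8% of the gene counts in the WT libraries and 3.64% and 4.71% in those of KO. As CPM are shares of a library, the direction of a small change depends on the scale. With total counts as the scale 8995 genes rose and 7105 fell, which made 55.9% of calls rises in place of 41.1%. With the sum of a list of Sertoli cell genes as the scale 266 rose and 16120 fell. The median over all genes was −0.12 with TMM, and it moved by 0.46 with total counts and by −1.41 with the Sertoli sum. Directions below are relative to TMM, and counts on the Sertoli scale are given where they turn a group's direction. Counts of list members are to be read beside the 26.1% and 37.4% of all genes.

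**Figure D1:**
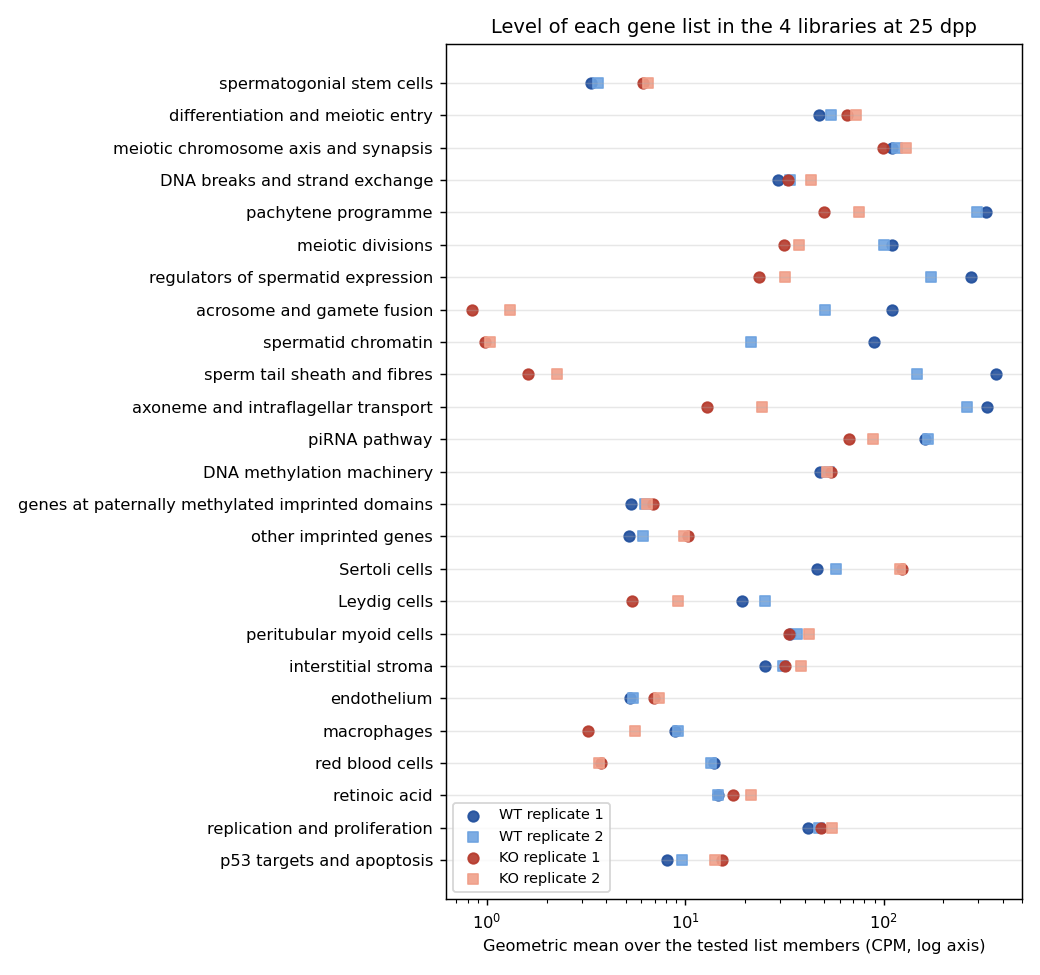
Geometric mean level in CPM (log axis) over the tested members of each gene list in the 4 libraries at 25 dpp, circles for replicate 1 and squares for replicate 2. The acrosome list had 110.4 and 50.4 CPM in WT beside 0.838 and 1.30 CPM in KO, while the list of the meiotic chromosome axis lay between 99.6 and 129.6 CPM in all 4 libraries.

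Dnmt3a itself (chromosome 12, 3806007 to 3914443) lay at 48.7 and 69.96 CPM in WT, with KO at 76.8 and 67.2 CPM, and the genotypes overlapped (log2 fold change 0.28, SE 0.18, edgeR adjusted p = 0.204). It was higher in KO without WT replicate 2 (0.58, edgeR adjusted p = 0.0118) and with total counts (0.73, edgeR adjusted p = 0.0171). Counts over the whole gene include exons that a deletion may leave in place, so this is no check of the labels. Of 18 tested genes of DNA methylation 7 rose and 5 fell, against 26.1% and 37.4% of all genes, with a median of 0.27. Dnmt3l, which codes for the inactive partner that stimulates DNMT3A, measured 8.78 and 4.59 CPM in WT, against 0.811 and 0.213 CPM in KO (log2 fold change −3.66, SE 0.63, edgeR adjusted p = 0.00185). Both KO libraries were thus several-fold below both WT libraries. Other falls were in Zfp57 (−2.15, edgeR adjusted p = 0.00115) and Trim28 (−0.88, edgeR adjusted p = 7.79e-04), which protect methylation at imprinted genes. Uhrf1, which brings DNMT1 to newly copied DNA, fell as well (−0.92, edgeR adjusted p = 0.00763, and 0.0511 without KO replicate 1), and so did Nsd2, a histone methyltransferase (−0.57, edgeR adjusted p = 0.01599, and 0.113 without KO replicate 1, 0.0873 without WT replicate 1). Dnmt3b, the other de novo enzyme of this family in the list, had WT levels of 16.6 and 23.5 CPM and KO levels of 37.7 and 35.7 CPM (log2 fold change 0.88, SE 0.32, edgeR adjusted p = 0.0423), but it did not pass without any 1 of the 4 KO libraries of both ages or without WT replicate 1, where adjusted p lay between 0.0520 and 0.169. Dnmt1, the maintenance enzyme, was at 158 and 176 CPM in WT against 169 and 173 CPM in KO (0.03, edgeR adjusted p = 0.878). Members named because they went against their group, here and below, were chosen after their values were seen. The Sertoli scale gave 0 rises and 11 falls in this list, and without KO replicate 1 the falls were 3.

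Genes of spermatogonia, the germ cells before meiosis, were mostly higher in KO. Of 20 tested genes of spermatogonial stem cells 12 rose and 2 fell, with a median of 1.04 and a geometric mean of 3.33 and 3.64 CPM in WT and of 6.13 and 6.51 CPM in KO. Gfra1, the receptor through which Sertoli cells maintain stem cells, lay at 5.89 and 5.12 CPM in WT, with KO at 18.5 and 17.4 CPM (log2 fold change 1.71, SE 0.33, edgeR adjusted p = 0.00293). Zbtb16, a transcription factor needed for stem cell upkeep, measured 14.01 and 16.8 CPM in WT, against 63.3 and 35.6 CPM in KO (log2 fold change 1.68, SE 0.29, edgeR adjusted p = 0.00201). Both genes had separate groups, although KO replicate 1 held far more Zbtb16 than KO replicate 2. The falls were Id4 (−0.64, edgeR adjusted p = 0.0291, and 0.195 without KO replicate 1, 0.0583 without WT replicate 1, 0.0977 without WT replicate 2) and Bcl6b (−1.11, edgeR adjusted p = 0.0178, and 0.118 without KO replicate 1, 0.0533 without WT replicate 1), both linked to stem cell self-renewal. Of 13 genes of differentiation and entry into meiosis 9 rose and 2 fell (median 0.82). Kit, the receptor that marks differentiating spermatogonia, had WT levels of 38.004 and 46.5 CPM and KO levels of 62.2 and 66.7 CPM (log2 fold change 0.61, SE 0.19, edgeR adjusted p = 0.0212, and 0.0586 without KO replicate 1, 0.0891 without KO replicate 2, 0.0683 without WT replicate 1). Rec8, a cohesin of meiotic chromosomes, lay at 96.3 and 54.3 CPM in WT, with KO at 26.6 and 43.3 CPM (log2 fold change −1.11, SE 0.35, edgeR adjusted p = 0.0276, and 0.156 without KO replicate 1, 0.171 without WT replicate 1). Dmrtb1, a regulator of the switch from mitosis to meiosis, measured 926 and 636 CPM in WT, against 39.9 and 37.6 CPM in KO (log2 fold change −4.33, SE 0.57, edgeR adjusted p = 0.00103). The median of both lists turned on the Sertoli scale, to −0.36 with 1 rise and 6 falls for stem cells and to −0.55 with 0 rises and 5 falls for differentiation.

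Genes of early meiotic prophase did not move in 1 direction. Of 15 genes of the chromosome axis and the synaptonemal complex, the protein ladder that holds paired chromosomes, 3 rose, 3 fell and 9 were not called (median 0.10). Sycp3, of the axis, had WT levels of 274 and 326 CPM and KO levels of 356 and 458 CPM, and every KO library was above every WT library without passing the test (log2 fold change 0.44, SE 0.32, edgeR adjusted p = 0.263). It did pass with only the libraries at 25 dpp (0.56, edgeR adjusted p = 0.0409) and with total counts (0.90, edgeR adjusted p = 0.0396). Sycp1, which spans the paired axes, lay at 381 and 467 CPM in WT, with KO at 372 and 521 CPM. Hormad1, which monitors pairing, measured 225 and 289 CPM in WT, against 232 and 321 CPM in KO. For both genes the genotypes overlapped, with log2 fold changes of 0.07 and 0.10 (edgeR adjusted p = 0.853 and 0.814). Rises were found in Six6os1 (1.54, edgeR adjusted p = 3.40e-04), Rad21l (2.02, edgeR adjusted p = 0.00168) and Tex11 (1.46, edgeR adjusted p = 0.00414). Falls were found in Syce1 (−2.37, edgeR adjusted p = 0.00129), Meikin (−2.08, edgeR adjusted p = 0.00182) and Stag3 (−0.84, edgeR adjusted p = 0.0402, and 0.199 without KO replicate 1, 0.0821 without KO replicate 2, 0.203 without WT replicate 1, 0.0806 without WT replicate 2). Six6os1, Syce1 and Tex11 code for proteins of synapsis, Rad21l and Stag3 for cohesins, and Meikin for a protein of meiotic kinetochores. Among 22 genes of DNA breaks and strand exchange 8 rose (36.4%) and 3 fell (13.6%), with a median of 0.37. Dmc1, the recombinase of meiosis, had WT levels of 35.7 and 42.6 CPM and KO levels of 111 and 141 CPM (log2 fold change 1.69, SE 0.33, edgeR adjusted p = 0.00366), so that both KO libraries were well above both WT libraries. Spo11, which makes the breaks, lay at 95.4 and 98.6 CPM in WT, with KO at 36.01 and 38.8 CPM (log2 fold change −1.38, SE 0.31, edgeR adjusted p = 0.00624, and 0.0509 without KO replicate 1). Mlh3, of the crossover complex, measured 94.001 and 103 CPM in WT, against 35.6 and 50.9 CPM in KO (log2 fold change −1.19, SE 0.23, edgeR adjusted p = 0.00327). Hsf2bp, which brings recombinases to breaks, fell too (−1.22, edgeR adjusted p = 0.01703, and 0.115 without KO replicate 1, 0.0703 without WT replicate 1). Msh4, which stabilises crossover intermediates, was at 32.4 and 40.7 CPM in WT against 21.7 and 31.1 CPM in KO (−0.47, edgeR adjusted p = 0.286). Rises among the genes of breaks and exchange were 5 without WT replicate 1 and 4 without KO replicate 2, and on the Sertoli scale 0 rose and 14 fell. Of the axis genes 0 rose and 8 fell on that scale, whereas 7 rose and 2 fell with total counts, and 6 rose and 4 fell with only the libraries at 25 dpp.

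Genes of the pachytene stage, at which chromosomes are fully paired, and of the divisions were lower in KO. Of 20 pachytene genes 15 fell and 2 rose (median −2.50). Piwil1, whose product binds the small RNAs of pachytene cells, had WT levels of 1036 and 1084 CPM and KO levels of 122 and 281 CPM (log2 fold change −2.40, SE 0.64, edgeR adjusted p = 0.0152, and 0.0885 without KO replicate 1, 0.07098 without WT replicate 1, 0.0733 without WT replicate 2). Clgn, a chaperone of sperm surface proteins, lay at 1539.5 and 1284 CPM in WT, with KO at 138 and 255 CPM (log2 fold change −2.84, SE 0.53, edgeR adjusted p = 0.00352). KO replicate 2 was the higher KO library for both genes, and all KO values were far below WT. Mybl1, a master regulator of this stage, changed less, with 164 and 159.6 CPM in WT against 83.1 and 114 CPM in KO (−0.71, edgeR adjusted p = 0.01302, and 0.0996 without KO replicate 1). The 2 rises were Nxf2 (1.30, edgeR adjusted p = 0.00232), an RNA export factor, and Cpeb1 (1.32, edgeR adjusted p = 0.00949, and 0.0552 without WT replicate 1), which controls poly(A) tails. Dazl, an RNA-binding regulator, Tex14, of the bridges between germ cells, and Sycp1 were not called.

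Of 19 genes of the meiotic divisions 15 fell (median −1.47) and 1, Ccnb3, rose. Aurkc, the meiotic Aurora kinase, measured 42.1 and 34.2 CPM in WT, against 1.81 and 3.51 CPM in KO (log2 fold change −3.85, SE 0.42, edgeR adjusted p = 4.24e-04). Fbxo43, which holds back the anaphase-promoting complex, had WT levels of 69.8 and 66.04 CPM and KO levels of 6.79 and 12.6 CPM (log2 fold change −2.81, SE 0.47, edgeR adjusted p = 0.00209). Both were thus many-fold below WT in each KO library. Ccnb3, a cyclin encoded on the X chromosome, lay at 14.4 and 16.2 CPM in WT, with KO at 63.7 and 82.1 CPM (log2 fold change 2.25, SE 0.38, edgeR adjusted p = 0.00217). Cdk1, Cdk2 and Wee1, kinases that dividing cells share, were not called. Of 18 regulators of spermatid expression 16 fell (median −2.70). Crem, an activator of spermatid genes, measured 241 and 169.9 CPM in WT, against 26.5 and 35.2 CPM in KO (log2 fold change −2.73, SE 0.32, edgeR adjusted p = 6.11e-04). Rfx2, a factor of genes for cilia and tails, had WT levels of 543 and 399 CPM and KO levels of 42.8 and 60.05 CPM (log2 fold change −3.20, SE 0.39, edgeR adjusted p = 7.63e-04). Sox30, an activator of haploid genes, lay at 174 and 90.6 CPM in WT, with KO at 29.2 and 28.5 CPM (log2 fold change −2.20, SE 0.41, edgeR adjusted p = 0.00343). Each of these 3 regulators was several-fold lower in KO, with groups that did not overlap. The rise was Taf7l, a testis paralog of a TFIID subunit, also on the X chromosome, which measured 79.9 and 90.3 CPM in WT, against 237 and 258 CPM in KO (log2 fold change 1.54, SE 0.28, edgeR adjusted p = 0.00275).

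The deepest falls were in the genes that spermatids use to build sperm. Of 25 genes of the acrosome and of gamete fusion all 25 fell, with a median of −5.81 that did not move with the 1 member without KO counts at its bound. Acrv1, an acrosomal matrix protein, had WT levels of 156 and 53.1 CPM and KO levels of 0 and 0.177 CPM (log2 fold change −10.32, SE 1.03, edgeR adjusted p = 7.37e-04). Izumo1, the sperm protein that binds the egg receptor, lay at 71.6 and 25.5 CPM in WT, with KO at 1.41 and 1.703 CPM (log2 fold change −4.97, SE 0.51, edgeR adjusted p = 3.98e-04). Spaca1, of the acrosomal membrane, measured 163 and 67.2 CPM in WT, against 6.08 and 8.84 CPM in KO (log2 fold change −3.95, SE 0.44, edgeR adjusted p = 5.47e-04). KO levels of Acrv1 were at or near 0, while Izumo1 and Spaca1 kept 1.41 to 8.84 CPM. Izumo1 overlaps Rasip1 on the same strand, so part of its counts may belong there. All 25 members were also higher in WT replicate 1 than in WT replicate 2.

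Of 18 genes of spermatid chromatin 16 fell, and 8 of them had no counts in KO, so the median of −7.02 became −5.84 with those genes at their bound, computed against a floor of 3 counts over the group. Without WT replicate 1 the fitted median was −4.81, with 13 falls and 1 rise. Prm1, a protamine (chromosome 16, 10796326 to 10805839), had WT levels of 317 and 10.2 CPM and 0 counts in both KO libraries, which made it at least 3670.4-fold lower, and at least 222-fold lower without WT replicate 1. Prm2 had WT levels of 508 and 17.5 CPM and likewise 0 counts in KO, at least 5898-fold lower, and at least 379.9-fold lower without WT replicate 1. Tnp1, a transition protein, had WT levels of 401 and 20.4 CPM and KO levels of 0.135 and 0.07098 CPM (log2 fold change −10.90, SE 1.86, edgeR adjusted p = 0.00257), from 7 counts in KO in all. Each of these 3 RNAs was also far more abundant in WT replicate 1 than in WT replicate 2. Prm1 and Prm2 passed the test with all libraries (edgeR adjusted p = 0.0289 and 0.0256) and not without KO replicate 1, where adjusted p was 0.0865 and 0.0784, or without KO replicate 2, where it was 0.0767 and 0.0695. The list had 9 falls in place of 16 without KO replicate 1 and 12 without KO replicate 2. Cdyl and Rnf8, which act on histones and are used outside spermatids as well, were not called.

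Tail genes fell as a group too. Of 21 genes of the mitochondrial sheath, outer dense fibres and fibrous sheath 21 fell (median −6.93). Odf1, of the outer dense fibres, lay at 304 and 84.9 CPM in WT, with KO at 0.2704 and 0.603 CPM (log2 fold change −8.83, SE 0.81, edgeR adjusted p = 3.90e-04). Akap3, of the fibrous sheath, measured 736 and 228 CPM in WT, against 2.43 and 3.09 CPM in KO (log2 fold change −7.45, SE 0.66, edgeR adjusted p = 3.63e-04). Smcp, of the mitochondrial sheath, had WT levels of 372 and 94.999 CPM, with 2 counts in KO replicate 1 and 0 in KO replicate 2. Its WT to KO ratio was 7763, with an exact 95% interval of the counts from 2149 to 64104. Of 28 genes of the axoneme and of transport in the flagellum 27 fell (median −4.30). Dnah8, a dynein of the axoneme, had WT levels of 2133 and 1905 CPM and KO levels of 77.9 and 193 CPM (log2 fold change −3.90, SE 0.73, edgeR adjusted p = 0.00363). Cfap44, a cilia and flagella protein, lay at 178 and 130.2 CPM in WT, with KO at 2.298 and 6.46 CPM (log2 fold change −5.15, SE 0.82, edgeR adjusted p = 0.00199). KO replicate 2 again held more of these axonemal RNAs than KO replicate 1. Ift88, a transport protein that all ciliated cells use, was at 152 and 154 CPM in WT against 76.2 and 90.6 CPM in KO (log2 fold change −0.88, SE 0.17, edgeR adjusted p = 0.003002), so it changed far less than the dynein. Rsph4a, at under 1 CPM in all 4 libraries, was not called.

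**Figure D2:**
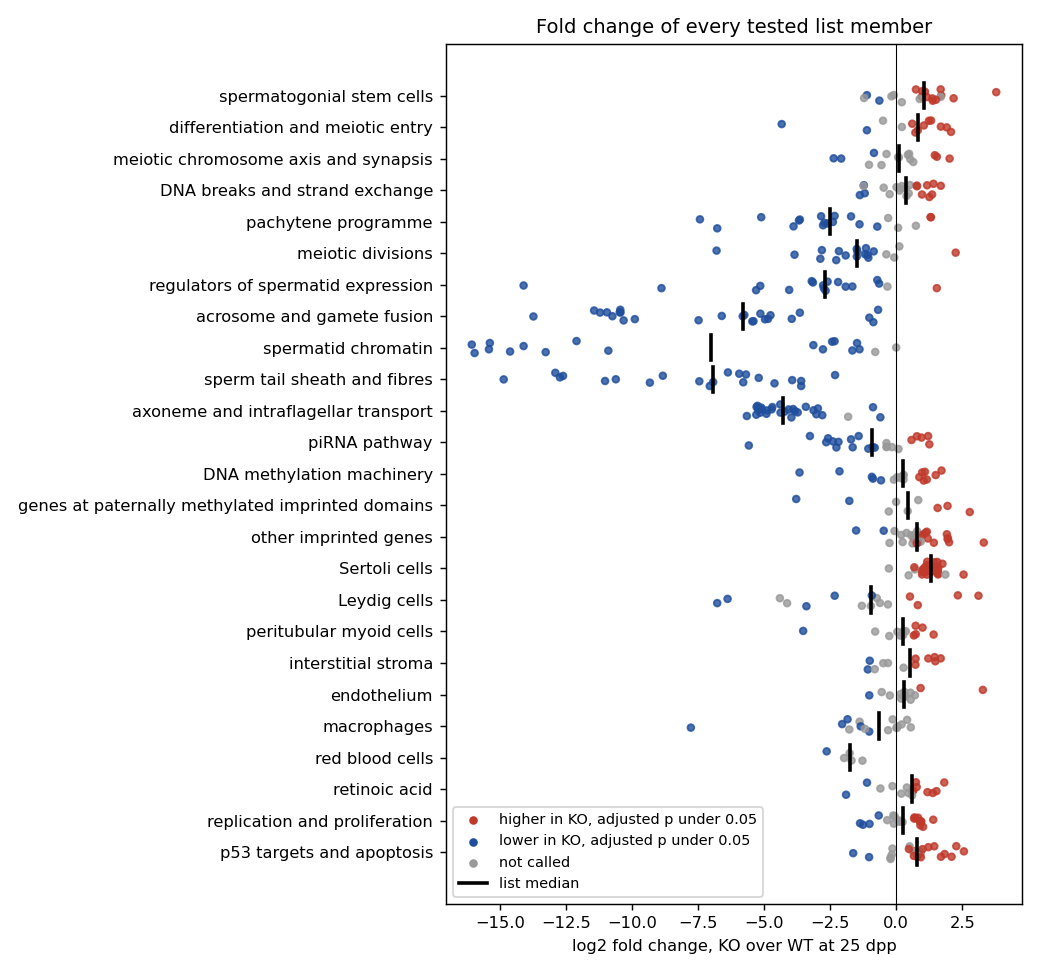
Log2 fold change (KO over WT, TMM scale) of every tested member of each list, with red for rises, blue for falls, grey for genes not called and a black bar at the list median. Medians of fitted values ran from 1.31 for Sertoli cells to −7.02 for spermatid chromatin, which is −5.84 with members lacking KO counts at their bound, above the −6.93 of tail sheath and fibres; on the Sertoli scale all medians were below 0.

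The promoters of a protamine and of a sheath gene are printed for their CG content, as CG pairs are the usual target of DNMT3A. The window runs from 250 bases before to 50 after the start of transcription in RefSeq on GRCm38.p6, the assembly of the mm10 build. The pair CG reads the same on both strands. Prm1 (chr16:10796774-10797073, minus strand) holds 1 CG and Smcp (chr3:92589024-92589323, minus strand) holds 0, with CG in capitals:
Prm1: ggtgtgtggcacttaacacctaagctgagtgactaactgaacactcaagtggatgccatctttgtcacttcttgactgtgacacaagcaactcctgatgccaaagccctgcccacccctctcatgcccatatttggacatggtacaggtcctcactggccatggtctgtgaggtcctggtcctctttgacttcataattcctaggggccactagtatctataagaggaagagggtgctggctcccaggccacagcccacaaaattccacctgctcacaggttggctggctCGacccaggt
Smcp: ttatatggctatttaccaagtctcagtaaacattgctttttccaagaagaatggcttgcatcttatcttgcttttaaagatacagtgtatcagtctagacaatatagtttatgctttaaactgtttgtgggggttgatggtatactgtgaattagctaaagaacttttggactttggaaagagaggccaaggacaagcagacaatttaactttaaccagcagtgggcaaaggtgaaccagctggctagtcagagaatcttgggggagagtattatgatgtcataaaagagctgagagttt
Among 15654 windows of the 12368 matched protein-coding genes (81.2% of those tested) the median was 18 CG, and 10.8% of windows held 3 or fewer. Windows of genes that fell over 4-fold had a median of 9 CG, and 24.6% of them held 3 or fewer. Those of genes that rose over 4-fold had a median of 10.5 CG, and 16.9% held 3 or fewer. Medians below that of all genes were thus found for large changes in both directions. The deepest falls held fewer CG still, as windows of genes that fell over 32-fold had a median of 4, with 44.8% at 3 or fewer. For all genes that fell the median was 17, for genes that rose 19, and for genes not called 18. Not all lists that fell had few CG. Medians were 7.5 for the acrosome, 7 for spermatid chromatin, 11.5 for the tail sheath and fibres and 15 for the axoneme, but 24 for the meiotic divisions and 24 for the regulators of spermatid expression. No methylation was measured in these libraries.

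The piRNA pathway, which makes small RNAs that silence transposons and, before birth, guides methylation to them, held both directions. Of 23 tested genes 13 fell (56.5%) and 5 rose (21.7%), against 37.4% and 26.1% of all genes (median −0.90). Piwil4, the partner of piRNAs in the fetal nucleus, measured 1.39 and 2.31 CPM in WT, against 4.299 and 4.26 CPM in KO (log2 fold change 1.21, SE 0.33, edgeR adjusted p = 0.0138, and 0.0547 without KO replicate 1, 0.0574 without WT replicate 1). Piwil2, which works with it in making piRNAs, had WT levels of 439.9 and 583 CPM and KO levels of 334 and 459 CPM (−0.37, edgeR adjusted p = 0.275). Mov10l1, the helicase that starts their production, lay at 239 and 317 CPM in WT, with KO at 213 and 286 CPM (−0.16, edgeR adjusted p = 0.685). The genotypes overlapped for both of these genes, while Piwil4 was higher in each KO library at a low level. Tex15, needed in the same fetal pathway, rose (log2 fold change 1.26, SE 0.19, edgeR adjusted p = 0.00108), and so did Fkbp6 (0.78, edgeR adjusted p = 0.00436). Btbd18 (0.96, edgeR adjusted p = 0.01395, and 0.0605 without KO replicate 2, 0.0571 without WT replicate 1) and Pnldc1 (0.58, edgeR adjusted p = 0.03305, and 0.187 without KO replicate 1, 0.123 without WT replicate 1, 0.05296 without KO replicate 2 at 19 dpp) passed only with those libraries in the fit. Falls were 6 without KO replicate 1 and 8 without WT replicate 2, and rises were 2 without WT replicate 1 and 3 without KO replicate 1. Scaling to the Sertoli sum gave 0 rises and 20 falls.

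Imprinted genes, expressed from the copy of 1 parent, rose more often than they fell on the TMM scale. Some imprinted regions are methylated on the copy that comes from sperm, and in the germ line DNMT3A is known to set those marks. Of 9 tested genes in these paternally methylated regions 3 rose (33.3%) and 2 fell (22.2%), against 26.1% and 37.4% of all genes. H19, a noncoding RNA made from the maternal copy (chromosome 7, 142575529 to 142578143), measured 4.58 and 5.15 CPM in WT, against 26.1 and 11.3 CPM in KO (log2 fold change 1.95, SE 0.45, edgeR adjusted p = 0.00778, and 0.05999 without WT replicate 1). Its neighbour Igf2, a growth factor, had WT levels of 0.463 and 1.08 CPM and KO levels of 1.14 and 1.63 CPM (0.84, edgeR adjusted p = 0.142). H19 thus had separate groups with a wide spread in KO. For Igf2 both KO libraries were above both WT libraries too, though the groups lay close together at a low level. Igf2 rose with total counts (1.27, edgeR adjusted p = 0.0408), and its log2 fold change was 1.58 without WT replicate 2. It overlaps Gm49394 on the same strand, so part of its counts may belong there. In the region of chromosome 12, Dlk1, a signalling protein, lay at 2.999 and 4.504 CPM in WT, with KO at 29.8 and 21.9 CPM (log2 fold change 2.79, SE 0.60, edgeR adjusted p = 0.00649, and 0.0743 without WT replicate 1). Meg3, a noncoding RNA, measured 14.3 and 22.7 CPM in WT, against 63.5 and 46.1 CPM in KO (log2 fold change 1.57, SE 0.30, edgeR adjusted p = 0.003201). Mirg, a noncoding RNA further along the same region, went the other way, with 16.98 and 11.6 CPM in WT against 0.703 and 1.38 CPM in KO (log2 fold change −3.78, SE 0.44, edgeR adjusted p = 4.75e-04). Rian, between them, was at 6.62 and 10.2 CPM in WT against 10.5 and 12.3 CPM in KO (0.44, edgeR adjusted p = 0.129). Rasgrf1, on chromosome 9, had WT levels of 8.997 and 4.36 CPM and KO levels of 2.704 and 1.17 CPM (log2 fold change −1.77, SE 0.53, edgeR adjusted p = 0.0198, and 0.107 without KO replicate 2, 0.149 without WT replicate 1). Zdbf2, on chromosome 1, was not called (−0.28). Of 27 other imprinted genes 15 rose and 2 fell (median 0.79). Peg3, a zinc finger gene that is also abundant in somatic cells, lay at 38.3 and 52.9 CPM in WT, with KO at 201 and 151 CPM (log2 fold change 1.95, SE 0.23, edgeR adjusted p = 5.15e-04). Mest was at 1.25 and 2.52 CPM in WT against 2.19 and 2.27 CPM in KO (0.24, edgeR adjusted p = 0.557). The falls were Commd1 (−1.52, edgeR adjusted p = 0.00113) and H13 (−0.47, edgeR adjusted p = 0.0357, and 0.233 without KO replicate 1, 0.147 without WT replicate 1, 0.0595 without WT replicate 2, 0.0685 without KO replicate 1 at 19 dpp, 0.0598 without KO replicate 2 at 19 dpp). On the Sertoli scale these 27 genes gave 3 rises and 9 falls, and the 9 genes of paternally methylated regions gave 1 rise and 4 falls. Without WT replicate 2, 5 of those 9 rose. H19, Dlk1 and Peg3 are also made by somatic cells, so the part of those cells in these levels was not tested, and Sertoli cell genes rose by a median of 1.31 in the same libraries.

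Many enzymes exist as a pair, with a gene used in most cells and a copy used in germ cells after or during meiosis. In several pairs the general gene lies on the X chromosome, which spermatocytes silence, and the copy on an autosome. In 24 such pairs the germ cell gene fell in 22, rose in 1 and was not called in 1, whereas the general partner rose in 14, fell in 3 and was not called in 7. Median changes were −3.04 for germ cell genes and 0.75 for partners, and the germ cell gene had the lower value in 23 of 24 pairs (median difference −3.14). Of the 9 partners on the X chromosome 8 rose, Cstf2 being the exception (0.56, edgeR adjusted p = 0.0678). On the Sertoli scale 23 of the 24 partners had a value below 0, while a change of scale shifts both genes of a pair alike.

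Pgk2, the germ cell phosphoglycerate kinase, measured 615 and 309.7 CPM in WT, against 2.298 and 3.09 CPM in KO (log2 fold change −7.43, SE 1.08, edgeR adjusted p = 0.00145). Pgk1, its partner on the X chromosome, had WT levels of 28.7 and 39.3 CPM and KO levels of 48.5 and 49.6 CPM (0.53, edgeR adjusted p = 0.0302, and 0.0877 without KO replicate 1, 0.101 without KO replicate 2, 0.0759995 without WT replicate 1, 0.0523 without KO replicate 1 at 19 dpp, 0.0568 without KO replicate 2 at 19 dpp). Gk2, a glycerol kinase of spermatids, lay at 895 and 577 CPM in WT, with KO at 7.68 and 21.5 CPM (log2 fold change −5.66, SE 0.82, edgeR adjusted p = 0.00143). Gk, on the X chromosome, measured 3.27 and 3.1004 CPM in WT, against 10.3 and 9.09 CPM in KO (log2 fold change 1.60, SE 0.24, edgeR adjusted p = 0.00106). In both pairs each KO library was on the opposite side of WT for the copy and for the partner. The 4 promoters, Pgk2 at chr17:40208560-40208859 (minus strand), Pgk1 at chrX:106186850-106187149 (plus strand), Gk2 at chr5:97456974-97457273 (minus strand) and Gk at chrX:85776770-85777069 (minus strand), are given with CG in capitals because the copies hold 4 and 5 CG and the partners 24 and 23:
Pgk2: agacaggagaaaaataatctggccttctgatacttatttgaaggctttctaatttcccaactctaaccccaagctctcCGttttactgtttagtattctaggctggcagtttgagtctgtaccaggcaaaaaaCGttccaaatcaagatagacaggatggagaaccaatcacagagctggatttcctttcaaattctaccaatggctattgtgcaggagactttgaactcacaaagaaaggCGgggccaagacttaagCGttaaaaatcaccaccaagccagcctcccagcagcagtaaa
Pgk1: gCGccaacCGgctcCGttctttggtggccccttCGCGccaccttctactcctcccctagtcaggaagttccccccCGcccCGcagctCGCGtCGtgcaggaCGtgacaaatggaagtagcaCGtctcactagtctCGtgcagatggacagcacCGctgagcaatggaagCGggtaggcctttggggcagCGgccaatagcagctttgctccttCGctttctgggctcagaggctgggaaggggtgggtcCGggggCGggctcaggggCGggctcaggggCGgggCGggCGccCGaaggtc
Gk2: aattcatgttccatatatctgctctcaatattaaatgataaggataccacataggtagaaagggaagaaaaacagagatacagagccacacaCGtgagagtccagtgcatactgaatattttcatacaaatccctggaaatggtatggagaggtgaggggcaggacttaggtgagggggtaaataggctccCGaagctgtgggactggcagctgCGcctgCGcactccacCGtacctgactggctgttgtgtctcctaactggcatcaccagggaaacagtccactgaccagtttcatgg
Gk: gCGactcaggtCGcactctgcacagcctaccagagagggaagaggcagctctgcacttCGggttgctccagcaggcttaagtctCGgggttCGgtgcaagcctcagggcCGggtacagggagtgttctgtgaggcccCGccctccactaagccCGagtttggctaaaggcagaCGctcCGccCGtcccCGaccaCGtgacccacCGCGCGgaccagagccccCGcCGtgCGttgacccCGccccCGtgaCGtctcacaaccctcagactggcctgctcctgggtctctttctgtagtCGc
The germ cell gene had fewer CG than its partner in 14 of the 18 pairs with both windows.

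Glycolysis, which powers the sperm tail, held several of these pairs, and their partners did not all move alike. Gapdhs, the sperm glyceraldehyde phosphate dehydrogenase, had WT levels of 424 and 105.1 CPM with 2 counts in KO in all, a WT to KO ratio of 8806 (exact 95% interval of the counts 2437 to 72718). Gapdh had WT levels of 178 and 226 CPM and KO levels of 368 and 353 CPM (log2 fold change 0.84, SE 0.15, edgeR adjusted p = 0.002098). Reads of its many pseudogenes may be counted with it. Aldoart1, an aldolase copy, had a ratio of 1627 (450.0 to 13437), also from 2 counts in KO, beside Aldoa at 285 and 232 CPM in WT against 317 and 227 CPM in KO (0.07, edgeR adjusted p = 0.743). For lactate dehydrogenase both members fell. Ldhc, the germ cell form, lay at 4630.4 and 3263 CPM in WT, with KO at 96.7 and 243 CPM (log2 fold change −4.54, SE 0.77, edgeR adjusted p = 0.00249). Ldha, the general form, measured 1529 and 1118 CPM in WT, against 52.04 and 82.8 CPM in KO (log2 fold change −4.30, SE 0.51, edgeR adjusted p = 7.60e-04). Eno1 (−0.68, edgeR adjusted p = 0.00346) and Ubqln1 (−0.66, edgeR adjusted p = 0.00257) were the other partners that fell. Among pairs outside metabolism, Rpl10l, a ribosomal protein copy, had WT levels of 269 and 241 CPM and KO levels of 43.4 and 73.5 CPM (log2 fold change −2.13, SE 0.34, edgeR adjusted p = 0.0017997). Rpl10, on the X chromosome, lay at 94.5 and 114 CPM in WT, with KO at 273 and 234 CPM (log2 fold change 1.28, SE 0.14, edgeR adjusted p = 4.16e-04). Rpl10 and Rpl10l are close copies, so reads may have been split between them. Slc25a31, the germ cell carrier of ADP and ATP, was not called (−0.03), with 127 and 148 CPM in WT against 117 and 153 CPM in KO, while Slc25a4 rose (1.14, edgeR adjusted p = 0.00117).

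**Figure D3:**
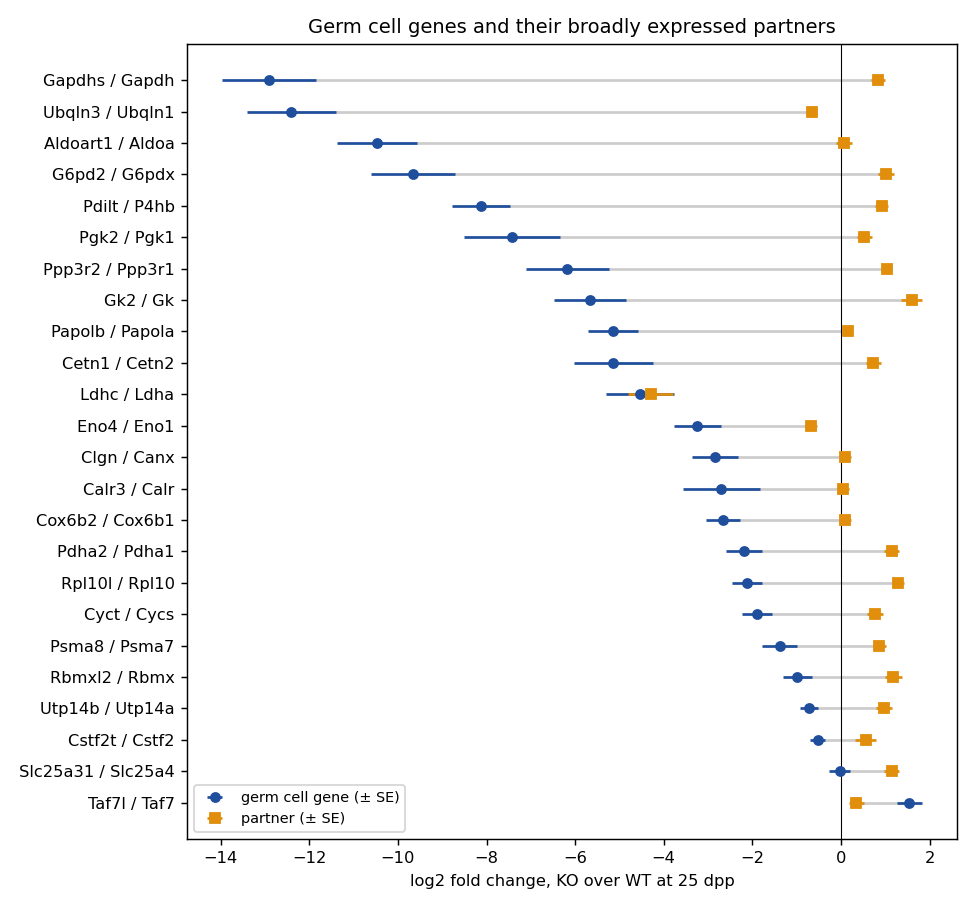
Log2 fold change (KO over WT, with SE) of germ cell genes (blue circles) and of their broadly expressed partners (orange squares), ordered by the germ cell gene. Circles lie left of squares in 23 of 24 pairs, Taf7l with Taf7 being the exception, and partners lie between −4.30 for Ldha and 1.60 for Gk.

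Genes of the X chromosome were higher in KO as a group. Of 729 tested X genes 438 rose (60.1%) and 106 fell (14.5%), with a median of 1.05. On single autosomes 27.2% to 33.4% rose and 29.7% to 37.1% fell, with medians between −0.13 and 0.12. The median of the X minus that of the autosomes was 1.03, and it lay between 0.92 and 1.13 in every scaling, filter, test and leave-one-out setting. On the Sertoli scale the X median itself was −0.35, with 2.74% of X genes rising. X genes were not all higher, as 99 of the 106 falls were over 4-fold, against 38 such rises. At 19 dpp the medians were 0.36 for the X and 0.016 for the autosomes, and 20.2% of X genes rose. Chromosome Y had 25 tested genes, of which 10 rose and 12 fell. Genes of 1 chromosome share libraries and are not independent, so no test was made of these shares.

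**Figure D4:**
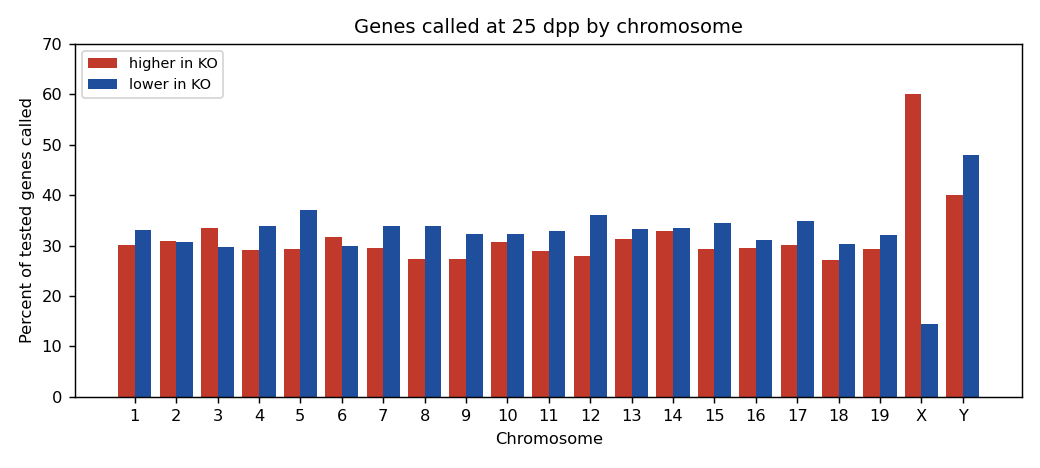
Percent of tested genes that rose (red) or fell (blue) in KO at 25 dpp on each chromosome, on the TMM scale. The X chromosome stood at 60.1% and 14.5%, outside the autosomal ranges of 27.2% to 33.4% and 29.7% to 37.1%, and on the Sertoli scale 2.74% of its genes rose.

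Genes of Sertoli cells, the somatic cells that enclose germ cells, were higher in both KO libraries. Of 30 genes 26 rose and 0 fell (median 1.31), with a geometric mean of 46.3 and 57.7 CPM in WT and of 124 and 121 CPM in KO. Sox9, a transcription factor of Sertoli cell identity, measured 27.2 and 36.5 CPM in WT, against 93.9 and 92.9 CPM in KO (log2 fold change 1.55, SE 0.20, edgeR adjusted p = 6.81e-04). Amh, the anti-Müllerian hormone of immature Sertoli cells, had WT levels of 14.6 and 19.98 CPM and KO levels of 39.3 and 39.04 CPM (log2 fold change 1.18, SE 0.19, edgeR adjusted p = 0.00138). Fshr, the receptor of follicle-stimulating hormone, lay at 8.94 and 11.9 CPM in WT, with KO at 26.9 and 35.99 CPM (log2 fold change 1.59, SE 0.27, edgeR adjusted p = 0.00185). Each KO library lay above each WT library for all of these genes. Inha, of the hormone inhibin, measured 202 and 233 CPM in WT, against 159 and 200.5 CPM in KO, lower in both KO libraries without passing the test (log2 fold change −0.28, SE 0.34, edgeR adjusted p = 0.501). Inhbb, Tsx and Krt18 were not called either. Scaling by these genes sets their own sum equal, and 1 then rose and 2 fell. In the retinoic acid pathway, which starts differentiation and meiosis, 8 of 16 genes rose and 2 fell (median 0.61). Aldh1a1, a Sertoli cell enzyme of retinoic acid synthesis, had WT levels of 409 and 497 CPM and KO levels of 774 and 779.7 CPM (log2 fold change 0.78, SE 0.20, edgeR adjusted p = 0.00949). Cyp26b1, which degrades it, lay at 83.6 and 109.8 CPM in WT, with KO at 233 and 207 CPM (log2 fold change 1.19, SE 0.19, edgeR adjusted p = 0.00139). Aldh1a2, the synthesis enzyme of spermatocytes, measured 209 and 187 CPM in WT, against 86.7 and 97.3 CPM in KO (log2 fold change −1.11, SE 0.18, edgeR adjusted p = 0.00158). Lrat, which stores retinol, fell too (−1.90, edgeR adjusted p = 0.0219, and 0.0573 without KO replicate 1, 0.0734 without WT replicate 1). Of these 16 genes 0 rose and 8 fell on the Sertoli scale.

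Leydig cells, which make testosterone between the tubules, gave a mixed list, with 5 of 16 genes lower and 4 higher (median −0.94). These shares, 31.25% and 25.0%, did not exceed the 37.4% and 26.1% of all genes. Cyp11a1, the enzyme that opens steroid synthesis, had WT levels of 97.9 and 103 CPM and KO levels of 0.784 and 1.06 CPM (log2 fold change −6.77, SE 1.52, edgeR adjusted p = 0.007603, and 0.060002 without KO replicate 1). Cyp17a1, a later enzyme, lay at 51.5 and 111 CPM in WT, with KO at 0.378 and 1.63 CPM (log2 fold change −6.38, SE 1.69, edgeR adjusted p = 0.0149, and 0.0936 without KO replicate 1, 0.0538 without KO replicate 2, 0.0698 without WT replicate 2). Insl3, a peptide hormone, measured 22.7 and 26.1 CPM in WT, against 1.19 and 3.48 CPM in KO (log2 fold change −3.40, SE 0.82, edgeR adjusted p = 0.0101, and 0.0639 without KO replicate 1). All KO values of these 3 genes were far below all WT values. Star, which carries cholesterol into mitochondria, had WT levels of 10.2 and 56.9 CPM and KO levels of 16.5 and 17.99 CPM, with KO inside the WT range (−0.96, edgeR adjusted p = 0.299), and Hsd17b3 (−0.74) and Srd5a1 (−1.30) were not called. Hsd3b1 (−2.33, edgeR adjusted p = 0.0191, and 0.05599 without KO replicate 1, 0.0685 without WT replicate 1, 0.0994 without WT replicate 2) and Fdx1 (−0.92, edgeR adjusted p = 0.00796, and 0.0574 without KO replicate 1) made up the falls. Nr5a1 (0.82, edgeR adjusted p = 0.00362) and Scarb1 (0.52, edgeR adjusted p = 0.0119, and 0.0564 without KO replicate 1), which Sertoli cells express as well, were among the rises. Ptgds, a prostaglandin synthase, rose with 3.14 and 3.01 CPM in WT against 39.6 and 13.7 CPM in KO (3.12, edgeR adjusted p = 0.00248). Hsd11b1, a glucocorticoid enzyme with at most 2.03 CPM, rose too (2.34, edgeR adjusted p = 0.00491). The falls were 0 without KO replicate 1, 3 without WT replicate 2, and 8 with only the 25 dpp libraries or without a WT library at 19 dpp. With the Sertoli sum as scale 14 fell and 1 rose. At 19 dpp the changes of Cyp11a1, Cyp17a1 and Insl3 were 0.59, 0.69 and 1.84. The test of the age difference gave −7.37 for Cyp11a1 (edgeR adjusted p = 0.0384) and −5.24 for Insl3 (edgeR adjusted p = 0.0260). For Cyp17a1 the difference was −7.07 and did not pass (edgeR adjusted p = 0.0583). Of the 8 fits without 1 library, 2 called this difference for Cyp11a1 and 3 for Insl3, with adjusted p of at most 0.147 and 0.0901.

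Other cells of the interstitium and tubule wall were covered by 3 lists with changes in both directions. In each of them falls were below the 37.4% of all genes, of which 26.1% rose. Of 13 genes of peritubular myoid cells, the contractile cells around tubules, 5 rose (38.5%) and 1 (7.69%), Actg2, fell (−3.52, edgeR adjusted p = 0.00483). Their markers Acta2 (118 and 145 CPM in WT against 116 and 177 CPM in KO) and Myh11 (78.02 and 99.9 CPM in WT against 88.9 and 125 CPM in KO) overlapped between genotypes, at 0.16 and 0.27. Of 12 stromal genes 6 rose and 2 fell. Col1a1, a collagen, lay at 76.03 and 114 CPM in WT, with KO at 63.9 and 71.7 CPM (log2 fold change −0.49, SE 0.20, edgeR adjusted p = 0.0608). The falls were Col3a1 (−1.07, edgeR adjusted p = 0.00826, and 0.05203 without KO replicate 1) and Mfap5 (−1.001, edgeR adjusted p = 0.0155, and 0.111 without KO replicate 1, 0.0594 without WT replicate 1), both of the extracellular matrix. Pdgfra (1.48, edgeR adjusted p = 3.08e-04) and Dcn (1.69, edgeR adjusted p = 5.91e-04) were among the rises. Of 13 endothelial genes 2 rose and 1, Vwf, fell (−1.02, edgeR adjusted p = 0.0441, and 0.222 without KO replicate 1, 0.0604 without KO replicate 2, 0.261 without WT replicate 1, 0.0535 without KO replicate 1 at 19 dpp, 0.0502 without KO replicate 2 at 19 dpp), near or below the shares of all genes. Vwf did not pass with total counts either (−0.53, edgeR adjusted p = 0.197), nor with only the libraries at 25 dpp (−0.89, edgeR adjusted p = 0.0588), and 6 of these genes rose with total counts. Robo4, an endothelial receptor, measured 2.45 and 2.78 CPM in WT, against 31.6 and 19.3 CPM in KO (log2 fold change 3.28, SE 0.30, edgeR adjusted p = 3.15e-04). Pecam1, the general endothelial marker, was at 5.398 and 5.62 CPM in WT against 10.8 and 7.24 CPM in KO (0.71, edgeR adjusted p = 0.0643), so the rise of Robo4 was not shared by the list. Rises in this list were 4 without WT replicate 2. These 3 lists gave 0, 0 and 1 rises and 11, 7 and 10 falls on the Sertoli scale.

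Macrophage genes gave 5 falls among 16 (31.25%, below the 37.4% of all genes) and 0 rises (against 26.1% of all genes), with a median of −0.66. Csf1r, the receptor macrophages depend on, had WT levels of 16.1 and 19.9 CPM and KO levels of 12.7 and 23.9 CPM, and Cd68 lay at 3.27 and 4.74 CPM in WT, with KO at 5.49 and 5.18 CPM, with no call for either (0.02 and 0.41). The deepest fall was in Aif1, with 149 and 37.3 CPM in WT against 0.2704 and 0.603 CPM in KO (log2 fold change −7.77, SE 0.97, edgeR adjusted p = 8.67e-04). WT replicate 1 lay far above WT replicate 2, as it did for spermatid genes. The falls were 3 without either WT replicate or KO replicate 1 at 19 dpp, and 1 without KO replicate 1. Among 5 genes of red blood cells Alas2, of heme synthesis, was the 1 that fell (log2 fold change −2.63, SE 0.87, edgeR adjusted p = 0.0335, and 0.169 without KO replicate 1, 0.0578 without KO replicate 2, 0.0903 without WT replicate 1, 0.0874 without WT replicate 2). All 5 had KO levels below WT levels, with values from −2.63 to −1.28, and 5 fell with only the 25 dpp libraries while 4 fell without a KO library at 19 dpp.

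Genes of replication and proliferation and genes of the p53 pathway rose more often than they fell, with some members of both going the other way. Of 21 replication genes 10 rose (47.6%) and 4 fell (19.0%), against 26.1% and 37.4% of all genes (median 0.24). Mki67, a marker of cycling cells, measured 157 and 170.4 CPM in WT, against 237 and 293 CPM in KO (log2 fold change 0.69, SE 0.18, edgeR adjusted p = 0.0115, and 0.07503 without KO replicate 2). Pcna, the clamp of DNA polymerases, had WT levels of 207 and 192 CPM and KO levels of 113 and 140.3 CPM (log2 fold change −0.66, SE 0.17, edgeR adjusted p = 0.0113, and 0.09401 without KO replicate 1, 0.05005 without WT replicate 1). Mcm7, of the replicative helicase, fell most (−1.37, edgeR adjusted p = 0.00183), so members of 1 process moved apart. Rises were 5 without WT replicate 1, 6 without KO replicate 1 and 5 without KO replicate 2, falls were 2 without KO replicate 1, and on the Sertoli scale 0 rose and 12 fell. Of 23 genes of p53 targets and apoptosis 14 rose (60.9%) and 2 fell (8.70%), with a median of 0.80. Cdkn1a, the p53 target that halts the cycle, lay at 9.79 and 10.6 CPM in WT, with KO at 7.52 and 10.1 CPM, with overlapping groups (−0.21, edgeR adjusted p = 0.6598). Bax, which opens mitochondria in apoptosis, measured 9.41 and 13.5 CPM in WT, against 23.8 and 19.4 CPM in KO (log2 fold change 0.92, SE 0.24, edgeR adjusted p = 0.0121, and 0.0749 without KO replicate 1, 0.0528 without WT replicate 1). The falls were Mdm2 (−1.02, edgeR adjusted p = 6.17e-04), the ligase that removes p53, and Zmat3 (−1.63, edgeR adjusted p = 5.93e-04). Rises were 8 without WT replicate 1 and 9 without KO replicate 1, and on the Sertoli scale 2 rose and 8 fell.

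Among genes in no list or pair, the largest rises at or above 8 CPM were in Galnt15, Gjc3, Hrk, Atp8b4 and the clone RP24-358M18.2. Galnt15, which starts sugar chains on proteins (chromosome 14, 32028989 to 32062197), had WT levels of 1.58 and 1.29 CPM and KO levels of 86.97 and 44.9 CPM (log2 fold change 5.52, SE 0.67, edgeR adjusted p = 8.08e-04). Atp8b4, a lipid flippase (chromosome 2, 126320973 to 126500674), lay at 3.35 and 1.81 CPM in WT, with KO at 33.6 and 76.5 CPM (log2 fold change 4.41, SE 0.50, edgeR adjusted p = 5.37e-04). Hrk, an activator of apoptosis, measured 0.273 and 0.556 CPM in WT, against 14.1 and 4.83 CPM in KO (log2 fold change 4.51, SE 0.96, edgeR adjusted p = 0.00624, and 0.0742 without WT replicate 1). Gjc3, a connexin, had WT levels of 0.273 and 0.439 CPM and KO levels of 7.43 and 9.55 CPM (log2 fold change 4.57, SE 0.56, edgeR adjusted p = 5.86e-04). All 4 lay at or below 3.35 CPM in WT, and each KO library was above both WT libraries. The largest falls with at least 10 counts in KO were in Spz1, Kif2b, Spata20, Pmfbp1 and the clone RP23-293N23.3, with log2 fold changes from −10.52 to −9.82. Spata20 lay at 724 and 244 CPM in WT, with KO at 0.487 and 0.497 CPM (log2 fold change −9.93, SE 0.91, edgeR adjusted p = 3.92e-04). Pmfbp1, of the joint between sperm head and tail, measured 347 and 119 CPM in WT, against 0.02704 and 0.532 CPM in KO (log2 fold change −9.82, SE 1.03, edgeR adjusted p = 5.25e-04). Over all genes, those in lists and pairs included, 176 had a WT mean of at least 8 CPM and no counts in KO. Each of them had a mean below 1 CPM in WT at 19 dpp. The reverse, no counts in WT at a KO mean of at least 8 CPM, was found for 0 genes.

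The same comparison at 19 dpp called 22% of genes, 2054 rises (8.8%) and 3091 falls (13.2%). Of the genes that fell at 19 dpp 73.8% fell at 25 dpp and 4.04% rose, and of those that rose at 19 dpp 74.1% rose and 5.11% fell. The KO effect differed between the ages for 4464 genes (19.1%), more positive at 25 dpp for 1793 and more negative for 2671. This count was 1117 without KO replicate 1 at 19 dpp, 1755 without KO replicate 2 at 19 dpp, 2318 without WT replicate 1 at 19 dpp, 2428 without WT replicate 1, 1266 without KO replicate 1 and 1833 without KO replicate 2. Of 22 genes of breaks and strand exchange 19 fell at 19 dpp against 3 at 25 dpp, and the difference was positive and called for 20. Of 15 axis genes 13 fell at 19 dpp against 3 at 25 dpp, with 10 such differences. Hormad1 changed by −2.36 at 19 dpp and 0.10 at 25 dpp (difference 2.46, edgeR adjusted p = 0.0222), a difference that 5 of the 8 fits without 1 library called (adjusted p at most 0.0817). For 28 axoneme genes 24 fell at 19 dpp and 27 at 25 dpp, with 3 differences called, all negative. Acrosome genes went from 8 falls of 25 at 19 dpp to 25 falls, with 8 negative differences. Spaca1 changed by 0.27 at 19 dpp and −3.95 at 25 dpp (difference −4.23, edgeR adjusted p = 0.00783).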

How the data were processed

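The deposited values are raw counts of reads per gene or repeat family, 1 table per library. Trizol extraction, a DNase step and a stranded mRNA kit are named per the labels. Per the submitters' processing notes, STAR 2.7.0a, featureCounts 1.5.1 and mm10 were used. The strand setting, the treatment of reads with several matches and the annotation are not given in the sources used here. Of 128 genes covered by the naming rule 24 overlap another protein-coding gene, 8 of them on the same strand, and without the strand setting their counts may be shared.

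The 1205 repeat entries were left out. Gene counts of all 8 libraries were filtered with filterByExpr, scaled by TMM and fitted in edgeR 4.0.16 (R 4.3.3) with 1 mean per group and robust quasi-likelihood, leaving 4 residual degrees of freedom. The SE was obtained by dividing the size of the log2 fold change by the root of the F statistic. The procedure was run on simulated data in which few genes changed, as many up as down. These data differ from that setting, so the simulation is no check of the scaling here. Geometric means used CPM plus 0.1. Genes were placed on GENCODE M21 by symbol, with 1-based coordinates. Alternatives were other scales, other filters, DESeq2 1.42.0, limma-voom (limma 3.58.1), only the 4 libraries at 25 dpp, a replicate block and leaving out each library. The X chromosome comparison was added after seeing the data.

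The 26 gene lists, the 24 gene pairs and the comparison itself were chosen with earlier results of these data known. Named genes are the leading genes of each list, the pairs, Dnmt3a, and the 5 largest rises and 5 largest falls outside them with at least 8 CPM in the higher group, at least 10 counts in the lower group and groups that do not overlap, leaving out names that start with Gm, LOC, mt- or AC and digits or end with Rik, while other clone names stayed in. Not every gene this rule covers is described, and the choice among them, like that of the further list members named, was made after their values were seen. Some genes are in 2 lists.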

Additional observations from a re-analysis of the deposited data

Results flagged for a closer look

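For 9 of 25 genes, each the leading gene of its list, the KO effect differed between 25 and 19 dpp in edgeR's test of the difference itself, given here as the log2 fold change at 25 dpp minus that at 19 dpp. Over all genes tested it was called for 4464 of 23353 (19.1%). The difference was positive for Dmc1 (2.86, edgeR adjusted p = 0.0104), Sycp3 (2.58, edgeR adjusted p = 0.0143), Mki67 (1.71, edgeR adjusted p = 0.00789), Piwil2 (1.51, edgeR adjusted p = 0.0381), Kit (1.27, edgeR adjusted p = 0.0183) and Peg3 (1.22, edgeR adjusted p = 0.0349). Dmc1, Kit and Mki67 fell at 19 dpp, by 1.17, 0.66 and 1.01, and rose at 25 dpp, by 1.69, 0.61 and 0.69. It was negative for Tnp1 (−12.82, edgeR adjusted p = 0.0294), Odf1 (−9.31, edgeR adjusted p = 0.0126) and Col1a1 (−1.41, edgeR adjusted p = 0.0161). Col1a1 rose by 0.92 at 19 dpp and was at −0.49 at 25 dpp.

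Of the 8 fits without 1 library, all 8 called the difference for Dmc1 and Mki67, 6 for Sycp3 and Odf1, 5 for Kit, 4 for Col1a1, 3 for Tnp1 and Piwil2 and 2 for Peg3, with adjusted p at most 0.298, for Tnp1 without KO replicate 2 at 19 dpp. On the Sertoli scale the difference was 0.73 for Kit, 0.68 for Peg3, 1.16 for Mki67, 2.03 for Sycp3 and 0.99 for Piwil2, none of which passed (adjusted p from 0.0593 to 0.238), while Dmc1, Tnp1, Odf1 and Col1a1 passed. With total counts Col1a1 was at −0.89 (edgeR adjusted p = 0.0666). With DESeq2 size factors as the scale Peg3 was at 1.14 (edgeR adjusted p = 0.0502), and the others passed.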

How the results depend on the processing

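Changing the scale had the widest effect. With the sum of the Sertoli cell genes as the scale 266 genes rose and 16120 fell, and the KO effect differed between the ages for 2580 genes. With total counts that difference was called for 7515 genes and with the DESeq2 Wald test for 7884. Requiring at least 5 CPM in 2 libraries, which tests 14434 genes, left 5469 falls. The remaining counts of genes called at 25 dpp were within 1.5 times of the value reported. With 1 library left out in turn, between 11219 and 15272 genes were called, 4365 to 5960 rises and 6854 to 9313 falls, and the difference between ages was called for 1117 to 5624 genes. A lone library left in a group is then assumed to vary like the others. On the Sertoli scale the log2 fold change of 41 of 127 named genes turned below 0. Of these, 37 were called on that scale or with TMM: Kit −0.79, Sycp1 −1.30, Hormad1 −1.27, Piwil4 −0.17, Dnmt3a −1.11, Dnmt1 −1.37, Dnmt3b −0.51, Mest −1.12, Amh −0.21, Acta2 −1.22, Myh11 −1.11, Tcf21 −0.64, Csf1r −1.34, Aldh1a1 −0.62, Cyp26b1 −0.21, Mki67 −0.70, Bax −0.48, Pgk1 −0.86, Gapdh −0.56, Aldoa −1.38, Pdha1 −0.25, Cycs −0.61, Cox6b1 −1.32, Slc25a4 −0.26, Calr −1.37, Canx −1.31, P4hb −0.49, Ppp3r1 −0.37, Psma7 −0.52, Rpl10 −0.13, Rbmx −0.22, Cstf2 −0.90, Utp14a −0.45, Cetn2 −0.68, G6pdx −0.37, Taf7 −1.04 and Papola −1.26. The other 4, Sycp3 −0.94, Igf2 −0.50, Pecam1 −0.72 and Cd68 −0.97, were called on neither. The cause of these turns is the scale itself, which moved the median of all genes by −1.41. Under the other settings no turn involved a call. With total counts 6 uncalled genes turned above 0, namely Slc25a31 0.43, Mov10l1 0.29, Cdkn1a 0.25, Zdbf2 0.20, Inha 0.18 and Piwil2 0.08. Star turned to 0.78 without WT replicate 2, and the remaining settings with turns had 1 to 8 of them. Replicate numbers are shared across groups, but deviations from the group means of same-numbered libraries correlated by 0.048 at 19 dpp and −0.074 at 25 dpp, so the numbers were not taken to pair animals. With a replicate block 14193 genes were called, 5607 rises and 8586 falls, and the difference between ages was called for 3601. Under the block Dnmt3b, Vwf and Calr3 lost their call, and Srd5a1, Col1a1 and Cstf2 gained one. The lists then had 5 falls in place of 3 among axis genes and 8 in place of 5 among Leydig cell genes. Without the filter, which tests 37969 genes, Prm1 and Prm2 were not called and spermatid chromatin had 8 falls in place of 16, and limma-voom did not call Prm1, Prm2 or Tnp1. Depth limits the low genes most, as 3 counts amount to 0.0811 to 0.106 CPM in the libraries at 25 dpp.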
